A study of Mus musculus with 20 samples.

Results

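The integrated stress response and the unfolded protein response were followed through 40 listed genes in the mouse hepatoma line Hepa1-6 after TGFβ1. Of these, 39 had a probe set that names them alone in the platform annotation, out of 18193 genes measured in all, and Gdf15 was not analysed here. Where a gene had several probe sets, the one with the highest mean over the 20 arrays was read. The members formed 3 sets: an ATF4 arm of 23 genes (22 measured), a chaperone arm of 12 genes and 5 stress sensors and endoplasmic reticulum (ER) factors.

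Hepa1-6 is an established line of strain C57L, so all groups share 1 genetic background, and all cultures were moved to medium without growth factors before the time course started. Cultures given TGFβ1 at 1 ng/ml were collected at 0, 1, 3, 6 and 10 h, and the control cultures were left without it and collected at the same times. Each of the 10 groups held 2 arrays that the submitters call biological duplicates, 20 arrays in all, and the treated cultures of 0 h are described as equal to the untreated cultures of 0 h. Levels are log2 values after RMA, a method that corrects background, makes the distributions of arrays alike and summarises the probes of a set, so a difference of 1 is a 2-fold change.

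In the integrated stress response, kinases such as PERK (Eif2ak3) and GCN2 (Eif2ak4) phosphorylate the translation factor eIF2α, which lowers most protein synthesis and raises translation of the factor ATF4. ATF4 drives genes for amino acid synthesis, amino acid import and tRNA charging, together with stress factors such as CHOP (Ddit3). In the unfolded protein response, the ER sensors IRE1α (Ern1) and ATF6 drive chaperones and degradation factors of the ER, IRE1α through splicing of the Xbp1 mRNA. Hepatocytes secrete much protein and carry a large ER load. The arrays measured RNA only, and neither eIF2α phosphorylation nor Xbp1 splicing was read.

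The promoters of some members carry the letters that both arms are known for. From these, 6 stretches are shown because they include the 2 genes with the largest positive difference from untreated cells and genes of both arms. Sequences came from RefSeq, build GRCm38.p6, as 250 bases before and 50 bases after each transcription start, and 35 of the 39 members had at least 1 such promoter. Both strands were searched for the C/EBP-ATF response element (CARE, TGATGNAA), the ER stress response element (ERSE, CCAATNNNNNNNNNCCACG), its second form (ERSE-II, ATTGGNCCACG) and the unfolded protein response element (UPRE, TGACGTG). The stretches of Herpud1 (chr8:94386305-94386399), Chac1 (chr2:119351037-119351068), Hspa5 (chr2:34771921-34772055) and Creld2 (chr15:88819508-88819550) lie on the plus strand. Those of Nupr1 (chr7:126625561-126625592) and Slc7a11 (chr3:50443641-50443691) lie on the minus strand. All 6 end before the transcription start, and capitals mark the matches.
Herpud1: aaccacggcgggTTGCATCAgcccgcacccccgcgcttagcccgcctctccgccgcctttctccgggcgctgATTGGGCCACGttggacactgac
Nupr1: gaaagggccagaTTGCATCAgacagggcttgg
Chac1: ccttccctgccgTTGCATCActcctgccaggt
Slc7a11: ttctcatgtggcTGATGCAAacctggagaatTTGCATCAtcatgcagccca
Hspa5: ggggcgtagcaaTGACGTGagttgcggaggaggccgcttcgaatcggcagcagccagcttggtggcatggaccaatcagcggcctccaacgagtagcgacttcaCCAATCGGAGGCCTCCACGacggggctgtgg
Creld2: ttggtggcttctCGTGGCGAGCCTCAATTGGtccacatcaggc
The capitals are a CARE and then an ERSE-II in Herpud1, a CARE in Nupr1 and Chac1, a pair of CAREs in Slc7a11, a UPRE and then an ERSE in Hspa5 and an ERSE in Creld2.

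A CARE stood in 7 of the 20 ATF4-arm genes with a promoter (Aars, Asns, Chac1, Fgf21, Nupr1, Slc7a11 and Trib3) and in 1 of 11 chaperone-arm genes (Herpud1). Over all 27025 genes with a promoter the share was 4.51% (3.97% of their 32851 promoters). An ERSE stood in 6 of the 11 chaperone-arm genes (Calr, Creld2, Dnajc3, Hsp90b1, Hspa5 and Pdia6), in 0 of the 20 ATF4-arm genes and in 0.137% of all genes (0.119% of promoters). The ERSE-II letters were found in Herpud1 alone among the members and in 0.0444% of all genes (0.0365% of promoters). The UPRE letters were found in Hspa5 alone and in 2.22% of all genes (2.01% of promoters). None of the 4 motifs matched in the 4 sensors and ER factors that had a promoter. Matches of different motifs did not overlap in the members. A match describes letters and does not show a bound site. Among the 7 ATF4-arm genes with a CARE, Nupr1 and Trib3 were higher in treated than in untreated cells at some time, Aars and Chac1 were lower, and Asns, Fgf21 and Slc7a11 passed the test at no time.

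**Figure D1:**
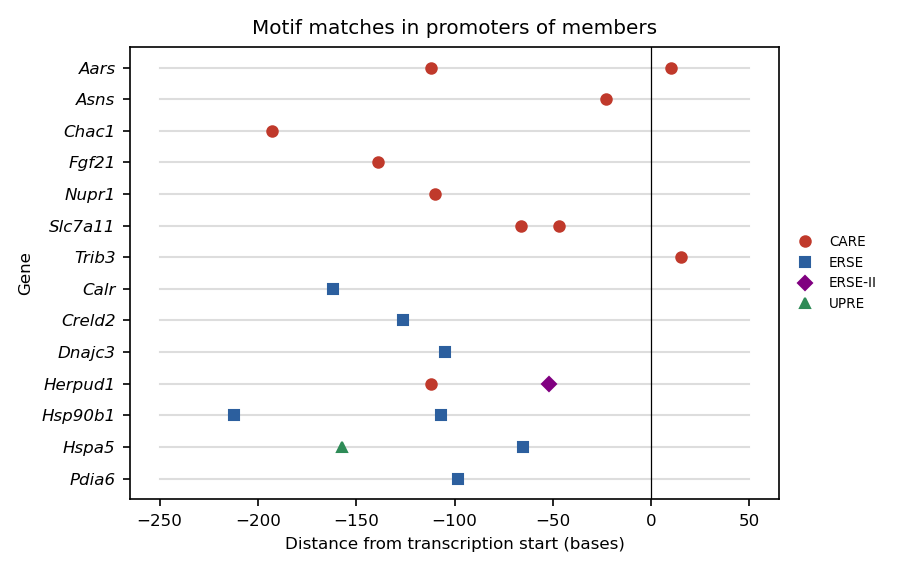
Positions of motif matches in the promoters of 14 members, as the distance in bases of the first matched base from the transcription start (vertical line); grey lines span the 300 bases searched. CARE matches (circles) lie in ATF4-arm genes and Herpud1, and ERSE matches (squares) lie in chaperone-arm genes.

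Treated and untreated cells of the same time were compared for each member with limma, and p-values were adjusted over all 18193 genes. Higher and lower in these comparisons are relative to untreated cells of that time, which changed too, and are no statement about the level at 0 h. At 0 h no member was called in either direction, as no gene was (0% higher and 0% lower), although 5 members and 740 of all genes had an unadjusted p under 0.05. At 1 h 3 members were higher and 0 lower, where 1.91% of all genes were higher and 0.324% lower. From 3 h on the called members were mostly lower. At 3 h 2 were higher and 15 lower, against 6.73% and 8.55% of all genes, which makes 38.5% of the members lower. At 6 h 2 were higher and 14 lower, against 7.77% and 7.96% of all genes. At 10 h 1 was higher and 12 lower, against 5.07% and 4.06% of all genes. The median difference over the 39 members was −0.013 at 1 h, −0.133 at 3 h, −0.113 at 6 h and −0.096 at 10 h, beside −0.013, −0.021, −0.026 and −0.003 over all genes. The count of 10 h rested on all 4 arrays compared: it fell from 13 to 6 without replicate 1 of either group and to 7 without replicate 2 of either group. Since whole cultures were measured, fewer cells of a kind and less RNA per cell cannot be told apart.

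Over the 4 times, 26 members were called at least once and 13 never. The share of all genes called over several times was not computed, so the counts across times here only describe the members. Those ever higher were 4 (Herpud1, Trib3, Nupr1 and Eif2ak3), 23 were lower at least once, and Herpud1 was both. A group of 6 was lower at each of 3, 6 and 10 h: Ddit3, Slc7a5, Mthfd2, Psat1, Aars and Sdf2l1. Of the 49 calls of a member at a time, 28 held when each compared array was left out in turn.

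**Figure D2:**
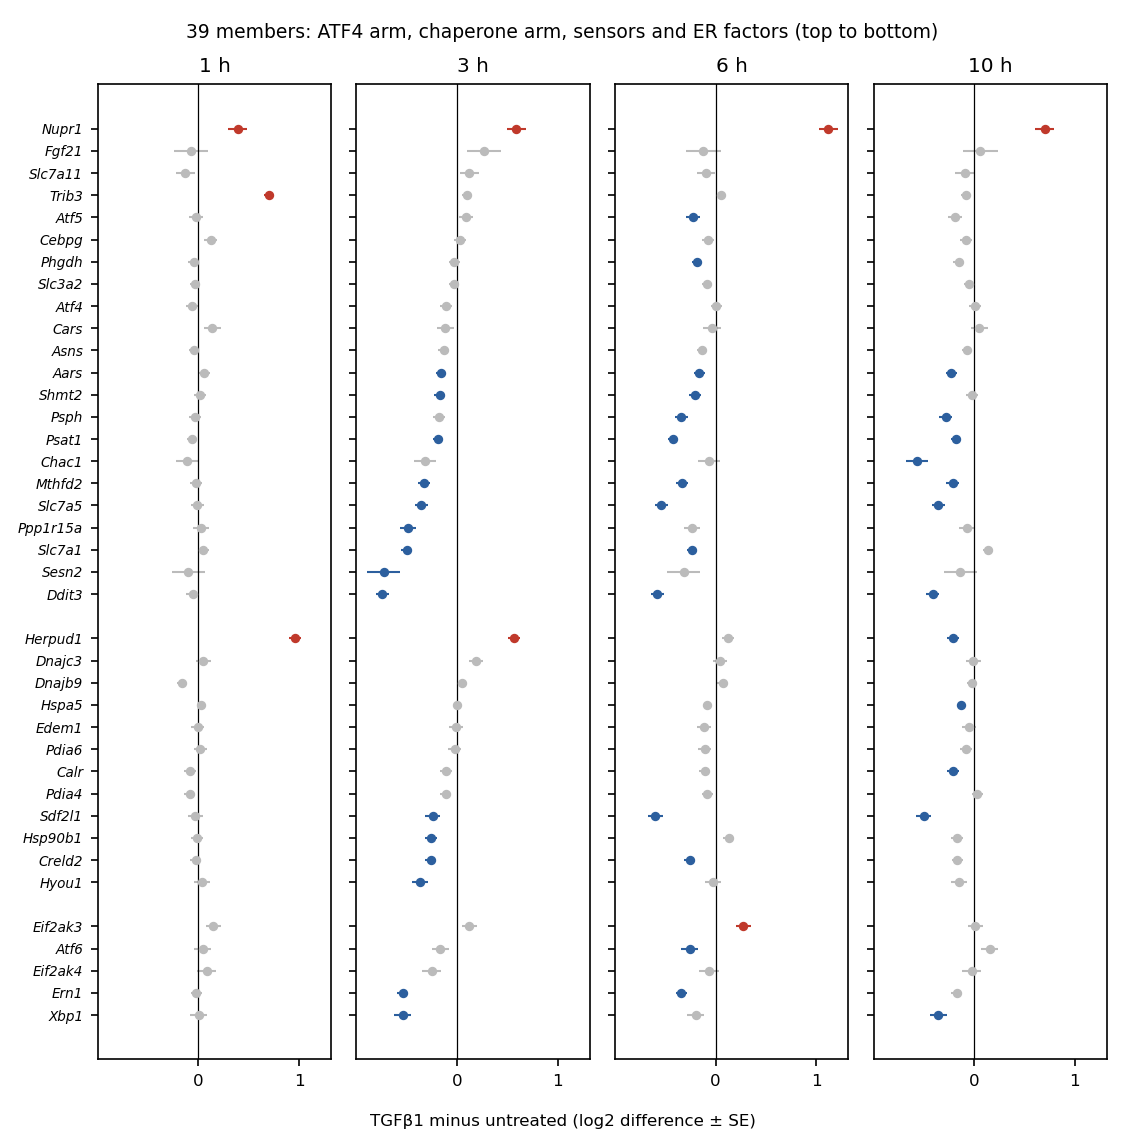
TGFβ1 minus untreated log2 difference with its standard error for the 39 members at 1, 3, 6 and 10 h, in blocks for the ATF4 arm, the chaperone arm and the sensors; red points were called higher, blue points lower and grey points passed no threshold. At 1 h Herpud1, Trib3 and Nupr1 stand to the right of 0, and from 3 h on most called points lie to its left.

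Herpud1, an ER membrane protein of the degradation machinery for misfolded proteins, showed the largest early rise. Its treated arrays read 9.60 and 9.57 at 0 h, 10.44 and 10.56 at 1 h, 10.27 and 10.14 at 3 h, 9.43 and 9.43 at 6 h and 9.01 and 9.07 at 10 h. The untreated arrays read 9.65 and 9.49, 9.55 and 9.52, 9.61 and 9.67, 9.31 and 9.30, and 9.26 and 9.24 at the same times. Both treated arrays were thus far above both untreated ones at 1 and 3 h and below them at 10 h. The log2 difference was 0.96 ± 0.059 (SE) at 1 h, 1.95-fold (adjusted p = 2.65e-10 by limma), 0.56 at 3 h (4.01e-07), 0.13 at 6 h (0.18) and −0.21 at 10 h (0.0305). The later call did not survive the loss of any 1 of its 4 arrays: the adjusted p was 0.247 and 0.0604 without treated replicate 1 and 2, and 0.17 and 0.117 without untreated replicate 1 and 2. Its second probe set gave 0.98 at 1 h and 0.50 at 3 h.

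Trib3 encodes a pseudokinase that ATF4 induces and that dampens ATF4 in return. Its treated arrays read 9.69 and 9.70 at 0 h, 10.13 and 10.18 at 1 h, 10.14 and 10.06 at 3 h, 10.05 and 9.98 at 6 h and 9.72 and 9.75 at 10 h, and its untreated arrays 9.67 and 9.67, 9.43 and 9.48, 9.99 and 10.01, 9.98 and 9.94, and 9.80 and 9.83. The groups stood apart at 1 h by 0.70 ± 0.048 (SE), 1.63-fold (adjusted p = 1.23e-09). From 3 h on untreated cells had come up to the treated level, and the differences of 0.10, 0.05 and −0.08 did not pass the test.

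Nupr1, a small stress-induced nuclear protein, was the only member higher at each of 1, 3, 6 and 10 h. Its treated arrays read 6.78 and 7.00 at 0 h, 6.99 and 7.16 at 1 h, 7.52 and 7.51 at 3 h, 8.11 and 8.09 at 6 h and 7.53 and 7.54 at 10 h. The untreated arrays stayed between 6.65 and 7.01 throughout. From 3 h on both treated arrays lay above every untreated array. The difference was 0.39 at 1 h (adjusted p = 0.0252), 0.59 at 3 h (9.17e-05), 1.12 ± 0.094 (SE) at 6 h, 2.17-fold (1.65e-08), and 0.70 at 10 h (3.4e-05). The call of 1 h was lost without treated replicate 2 (0.306) and without untreated replicate 1 (0.188) or 2 (0.083).

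**Figure D3:**
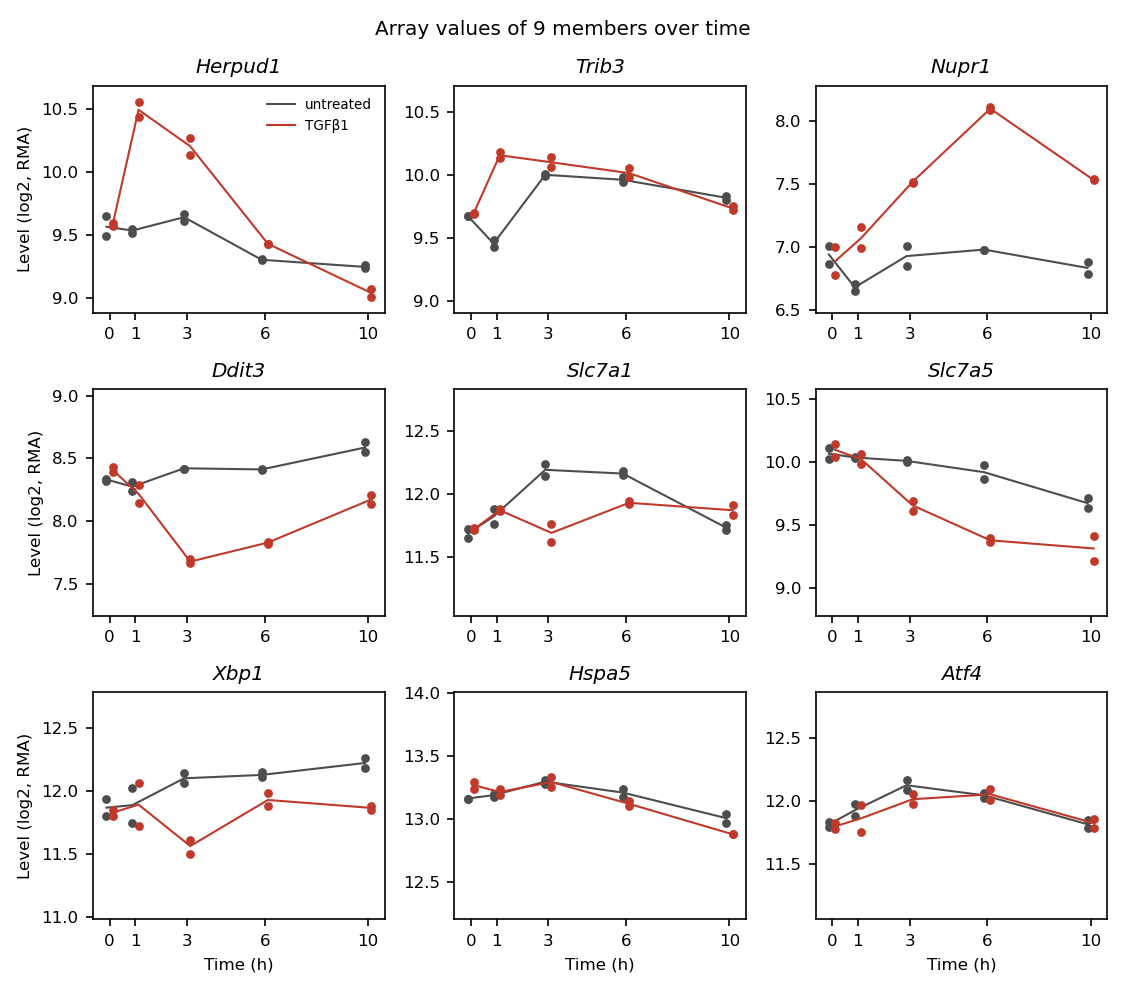
Log2 levels of 9 members on each array against time in hours, for TGFβ1 (red) and untreated cells (grey); points are single arrays and lines join the means of 2. Herpud1 and Trib3 part at 1 h, Nupr1 climbs to 6 h, Ddit3, Slc7a1, Slc7a5 and Xbp1 lie below untreated cells at 3 h, and Hspa5 and Atf4 lie close to them.

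Among the other regulators of the ATF4 arm, the mRNA of ATF4 itself did not pass the test at any time. Atf4 read 11.83 and 11.78, 11.97 and 11.76, 12.06 and 11.98, 12.10 and 12.01, and 11.86 and 11.79 in treated cells from 0 to 10 h, and 11.84 and 11.80, 11.98 and 11.88, 12.17 and 12.09, 12.07 and 12.03, and 11.79 and 11.85 in untreated cells. The treated and untreated values were interleaved or within 0.11 of each other in the mean: the differences were −0.06, −0.11, 0.01 and 0.01 at 1, 3, 6 and 10 h.

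Ddit3, which encodes CHOP, a factor tied to cell death in prolonged stress, had the lowest difference from untreated cells of the members at 3 h, next to Sesn2. It read 8.43 and 8.39 at 0 h, 8.29 and 8.15 at 1 h, 7.70 and 7.67 at 3 h, 7.84 and 7.82 at 6 h and 8.14 and 8.21 at 10 h in treated cells. Untreated cells read 8.32 and 8.34, 8.24 and 8.31, 8.42 and 8.42, 8.41 and 8.42, and 8.55 and 8.63. The groups did not overlap from 3 h on. Ddit3 was lower, with a difference of −0.74 on the log2 scale at 3 h (SE 0.065), 1.67-fold (adjusted p = 2.73e-08), of −0.58 at 6 h (1.09e-06) and of −0.41 at 10 h (0.000206), and all 3 calls held whichever array was left out. A dimmer second probe set of Ddit3 read −0.70 at 1 h already (0.0376, adjusted over all probe sets) and −0.62 at 3 h.

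Sesn2 encodes a leucine sensor that restrains mTORC1. Its treated arrays read 8.52 and 8.16, 7.83 and 7.70, 7.81 and 7.31, 8.02 and 7.95, and 8.21 and 8.06 from 0 to 10 h, and its untreated arrays 7.99 and 7.86, 7.97 and 7.76, 8.27 and 8.30, 8.56 and 8.05, and 8.50 and 8.04. Its duplicates lay far apart in several groups, and the treated arrays of 0 h already lay above the untreated ones by 0.41, which was not called. At 3 h Sesn2 was lower, with a difference of −0.73 (SE 0.16), 1.66-fold (adjusted p = 0.00312), a call that was lost without treated replicate 2 (0.109). Its second probe set read −0.57 at 3 h.

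Ppp1r15a encodes GADD34, which returns eIF2α to its unphosphorylated state. It was lower, with a difference of −0.49 at 3 h (adjusted p = 0.00012) and read −0.23 at 6 h (0.057) and −0.07 at 10 h. Chac1, an enzyme that breaks down glutathione, was lower, with a difference of −0.57 at 10 h (0.00152) after readings of −0.32 at 3 h (0.0533) and −0.07 at 6 h. Atf5, a factor related to ATF4, was lower, with a difference of −0.23 at 6 h (0.0253), a call lost without treated replicate 2 (0.206) or untreated replicate 1 (0.0737) or 2 (0.128). Cebpg, a dimer partner of ATF4, and Fgf21, a secreted hormone, passed at no time. Fgf21 was dim, between 4.19 and 4.91 on the 20 arrays.

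The transporters among the members were lower than in untreated cells where they were called. Slc7a5, the light chain of a transporter for large neutral amino acids, read 10.04 and 10.14 at 0 h, 9.98 and 10.06 at 1 h, 9.69 and 9.61 at 3 h, 9.36 and 9.39 at 6 h and 9.41 and 9.21 at 10 h in treated cells, and 10.11 and 10.02, 10.04 and 10.03, 10.01 and 10.00, 9.97 and 9.86, and 9.71 and 9.63 in untreated cells. The difference was −0.35 at 3 h (adjusted p = 0.000416), −0.54 at 6 h (2.58e-06) and −0.36 at 10 h (0.000763), with no overlap of the groups at these times. Slc7a1, a carrier of arginine and lysine, read 11.76 and 11.62 in treated against 12.14 and 12.24 in untreated cells at 3 h and 11.94 and 11.92 against 12.15 and 12.18 at 6 h. The treated level at 3 h was near that of 0 h (11.71 and 11.73), so that the difference of −0.50 (2.7e-07) lay in a rise of untreated cells. At 6 h the difference was −0.23 (0.00269), where Slc7a1 had risen from 0 h by 0.21 in treated (0.00398) and by 0.48 in untreated cells (9.52e-07), and at 10 h it was 0.14 (0.111). Slc3a2, the heavy chain that partners Slc7a5, and Slc7a11, the cystine carrier, were called at no time, with differences between −0.08 and −0.03 and between −0.13 and 0.12 from 1 h on.

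The 5 members that make serine or carry one-carbon units in mitochondria were each called lower at 6 h, where 7.96% of all genes were lower. These 5 belong to the ATF4 arm and were not a set of their own in the plan. The difference was −0.42 for Psat1 (adjusted p = 2.27e-06), −0.34 for Psph (0.000413), −0.34 for Mthfd2 (0.000382), −0.20 for Shmt2 (0.0166) and −0.19 for Phgdh (0.0197). For Mthfd2 this went with a rise from 0 h in untreated cells by 0.36 (0.000165), beside 0.06 in treated cells (0.567). Of the further pathway genes with such a role, named after their values were seen, Mthfd1l read −0.20 (0.0475, and 0.072 adjusted over all probe sets) and Aldh1l2 −0.18 (0.535). Psat1 and Mthfd2 were also lower at 3 h, with −0.19 (0.0111) and −0.33 (0.000502), and at 10 h, with −0.18 (0.022) and −0.22 (0.0266). Shmt2 read −0.17 at 3 h (0.0441) and Psph −0.28 at 10 h (0.00438). Several of these calls rested on single arrays. Phgdh at 6 h was lost without treated replicate 2 (0.14) or untreated replicate 1 (0.0504) or 2 (0.137), and Shmt2 at 6 h without treated replicate 1 (0.16) or untreated replicate 2 (0.144). Shmt2 at 3 h was lost without treated replicate 2 (0.34) or untreated replicate 1 (0.527), and Psat1 at 3 h without replicate 1 of the treated (0.0719) or untreated group (0.113). At 10 h Psph was lost without treated replicate 1 (0.136), and Psat1 without treated replicate 1 (0.336) or untreated replicate 1 (0.0766) or 2 (0.165). Mthfd2 at 10 h was lost without treated replicate 1 (0.176) or 2 (0.0843) and without untreated replicate 1 (0.238) or 2 (0.058). The second probe set of Psat1 gave −0.32 at 3 h and −0.38 at 10 h but −0.10 at 6 h, so the probe sets of Psat1 disagree at 6 h.

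Aars, which charges tRNA with alanine, was lower, with a difference of −0.16 at 3 h (adjusted p = 0.0482), of −0.16 at 6 h (0.0456) and of −0.23 at 10 h (0.00803). At 3 h its call was lost without treated replicate 1 (0.087) or 2 (0.246) or untreated replicate 2 (0.48). At 6 h it was lost without any array, treated replicate 1 (0.147) and 2 (0.164) and untreated replicate 1 (0.0609) and 2 (0.278), and likewise at 10 h (0.0567, 0.0572, 0.0658 and 0.0563). Cars, which charges cysteine, and Asns, which makes asparagine, were not called, with differences between −0.11 and 0.14 and between −0.14 and −0.04 from 1 h on.

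Of the 5 sensors and ER factors, Xbp1 and Ern1 were both lower at 3 h. Xbp1, the transcription factor downstream of IRE1α, read 11.80 and 11.85, 12.06 and 11.72, 11.61 and 11.50, 11.98 and 11.88, and 11.88 and 11.85 in treated cells, and 11.80 and 11.93, 12.02 and 11.74, 12.14 and 12.06, 12.11 and 12.15, and 12.26 and 12.18 in untreated cells. The groups did not overlap from 3 h on. Xbp1 was lower, with a difference of −0.54 at 3 h (adjusted p = 8.88e-05) and of −0.36 at 10 h (0.00912), and the reading of −0.20 at 6 h missed the threshold. Against 0 h, treated cells read −0.26 at 3 h (0.0388, lost without any 1 of its 4 arrays, at up to 0.257) and 0.04 at 10 h (0.828). Untreated cells had risen from 0 h by 0.36 at 10 h (0.00321, lost without replicate 1 of 0 h at 0.0582). Its call at 10 h was lost without treated replicate 1 (0.0589) or 2 (0.0678) or untreated replicate 1 (0.109). A second bright probe set of Xbp1, at a mean of 11.17, gave −0.43, −0.38 and −0.35 at 3, 6 and 10 h.

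Ern1 was lower, with a difference of −0.54 at 3 h (adjusted p = 2.47e-07) and of −0.34 at 6 h (0.00011) in its brightest probe set. Its other 4 probe sets, all dimmer, read −0.05, 0.30, 0.07 and −0.02 at 3 h and none passed, and with the mean of all probe sets the adjusted p was 0.857 at 3 h and 0.55 at 6 h. The lower level of Ern1 at 3 and 6 h therefore belongs to 1 probe set. At 10 h that set missed the threshold at −0.17 (0.0528), while one of the dimmer sets, at a mean of 6.06, read −0.60 (0.00266, adjusted over all probe sets). Eif2ak3 (PERK) was the only sensor called higher, by 0.27 at 6 h (0.0125), which was lost without treated replicate 2 (0.154) or untreated replicate 1 (0.0593) or 2 (0.0637), and with the mean of its probe sets (0.727). Atf6 was lower, with a difference of −0.26 at 6 h (0.0379), lost without treated replicate 1 (0.107) or 2 (0.171) or untreated replicate 1 (0.254). Eif2ak4 (GCN2) passed at no time, with its lowest reading of −0.25 at 3 h (0.0909).

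In the chaperone arm, Hspa5 (BiP), the main ER chaperone and the usual read-out of the unfolded protein response, stayed within 0.13 of untreated cells at all times. It read 13.29 and 13.24, 13.19 and 13.24, 13.33 and 13.25, 13.14 and 13.10, and 12.88 and 12.88 in treated cells, and 13.16 and 13.16, 13.20 and 13.17, 13.28 and 13.31, 13.24 and 13.17, and 13.04 and 12.97 in untreated cells. Its difference of −0.13 at 10 h (adjusted p = 0.0451) was lost without treated replicate 1 (0.185) or 2 (0.164) or untreated replicate 1 (0.363) or 2 (0.0682). The difference at 3 h was −0.00 with a SE of 0.039, while Herpud1 of the same arm was higher by 0.56.

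Sdf2l1, a cochaperone of the ER lumen, had the lowest difference from untreated cells in the chaperone arm. Its treated arrays read 8.48 and 8.47, 8.34 and 8.46, 8.37 and 8.22, 8.12 and 8.11, and 7.88 and 7.91, and its untreated arrays 8.40 and 8.37, 8.35 and 8.51, 8.51 and 8.57, 8.77 and 8.67, and 8.47 and 8.33. The groups did not overlap from 3 h on. Sdf2l1 was lower, with a difference of −0.24 at 3 h (adjusted p = 0.029), of −0.60 at 6 h, 1.51-fold (4.14e-06), and of −0.50 at 10 h (9.66e-05). The call of 3 h was lost without treated replicate 2 (0.292) or untreated replicate 1 (0.0669) or 2 (0.188), and those of 6 and 10 h held.

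Creld2, another ER stress-inducible protein of the lumen, was lower, with a difference of −0.26 at 3 h (adjusted p = 0.0016) and of −0.26 at 6 h (0.00194). Treated Creld2 stood at its level of 0 h at both times (0.00 at 3 h, adjusted p = 0.992, and −0.00 at 6 h, 0.997), and untreated cells had risen by 0.31 and 0.30. Hyou1, which helps BiP exchange its nucleotide, was lower, with a difference of −0.37 at 3 h (0.00194), lost without replicate 1 of the treated (0.0509) or the untreated group (0.0903) and with the mean of its probe sets (−0.221, 0.122). Hsp90b1, the ER form of HSP90, was lower, with a difference of −0.26 at 3 h (0.00288), but with the mean of its probe sets the adjusted p was 0.249. Calr, a lectin chaperone, was lower, with a difference of −0.21 at 10 h (0.0209), lost without treated replicate 1 (0.0938) or 2 (0.123) or untreated replicate 1 (0.115) or 2 (0.106). The cochaperones Dnajb9 and Dnajc3, the disulfide isomerases Pdia4 and Pdia6 and the degradation factor Edem1 passed at no time, with differences between −0.17 and 0.19 from 1 h on.

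Set side by side, both arms were lower under TGFβ1 from 3 h on: the ATF4 arm by a median shift of −0.127, −0.176 and −0.134 at 3, 6 and 10 h and the chaperone arm by −0.091, −0.102 and −0.129. At 3 h 1 ATF4-arm gene was higher and 9 of 22 lower, and 1 chaperone-arm gene was higher and 4 of 12 lower, beside 6.73% and 8.55% of all genes. At 6 h the counts were 1 and 10 in the ATF4 arm and 0 and 2 in the chaperone arm (7.77% and 7.96% of all genes), and at 10 h 1 and 7 and 0 and 4 (5.07% and 4.06%). For each array the shift of an arm was taken as the median over its genes of the level minus the mean of the 4 arrays of 0 h. The ATF4 arm stood at −0.159 ± 0.081 (SD, n = 2), −0.187 ± 0.027 and −0.243 ± 0.005 in treated cells at 3, 6 and 10 h, and at −0.032 ± 0.002, −0.011 ± 0.010 and −0.109 ± 0.015 in untreated cells. The chaperone arm stood at 0.017 ± 0.031, −0.028 ± 0.043 and −0.121 ± 0.042 in treated cells, and at 0.108 ± 0.031, 0.075 ± 0.022 and 0.008 ± 0.031 in untreated cells. In both arms the treated arrays lay below the untreated arrays at each of these times without overlap. At 0 h, in cultures described as equal, they lay above the untreated arrays without overlap, with differences of 0.034 in the ATF4 arm and 0.060 in the chaperone arm. The sensors stood at −0.203 ± 0.047 against 0.253 ± 0.059 at 3 h, 0.081 ± 0.072 against 0.280 ± 0.028 at 6 h and 0.212 ± 0.075 against 0.375 ± 0.063 at 10 h.

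The gap between the arms, ATF4 arm minus chaperone arm, was −0.176 ± 0.050 in treated and −0.140 ± 0.029 in untreated cells at 3 h, −0.160 ± 0.017 and −0.086 ± 0.012 at 6 h, and −0.122 ± 0.047 and −0.117 ± 0.016 at 10 h. The gap thus opened in untreated cells too, from 0.011 ± 0.029 at 0 h. TGFβ1 changed it by 0.018 at 1 h, −0.036 at 3 h, −0.074 at 6 h and −0.005 at 10 h, beside a pooled SD of duplicates of 0.035. The value of 3 h turned to 0.003 with a further quantile normalization and was −0.072 and −0.001 without treated replicate 1 and 2. The value of 6 h was −0.129 and −0.136 without untreated replicate 1 and 2 of 0 h. No p-value was computed for these scores.

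**Figure D4:**
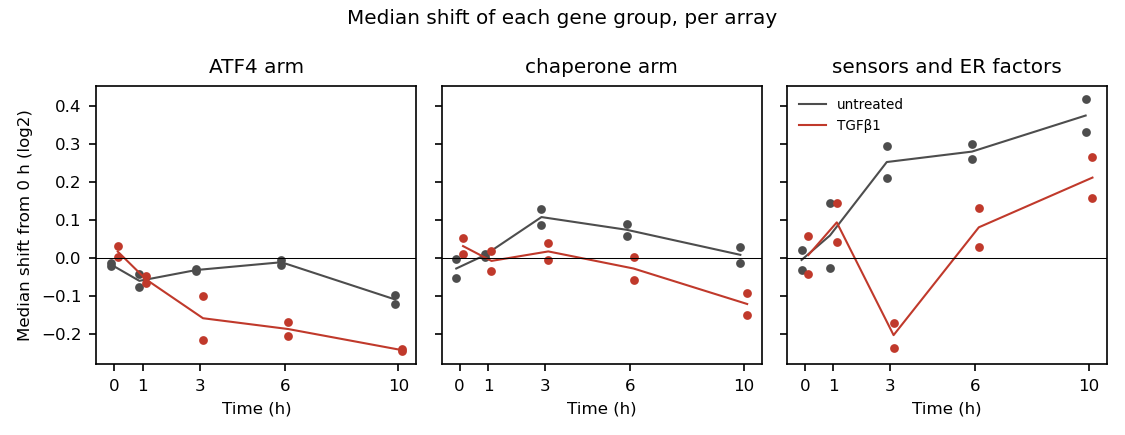
Median log2 shift from the mean of the 4 arrays of 0 h over the genes of each set, per array, against time in hours, for TGFβ1 (red) and untreated cells (grey); points are arrays and lines join the means of 2. Red points lie below grey points in all 3 panels at 3 and 6 h. Of the treated means at 3 h, that of the sensors is the lowest, at −0.203.

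Untreated cells changed over the same hours. Against untreated cells of 0 h, no member was called at 1 h (7 had an unadjusted p under 0.05), where 0.104% of all genes were higher and 0.0824% lower. At 3 h 12 members were higher and 1 lower (4.95% and 3.21% of all genes), at 6 h 14 and 5 (10.4% and 10.3%) and at 10 h 10 and 9 (13.3% and 12.8%). After centring on array medians the split of 3 h was 9 and 2. The count of 3 h fell from 13 to 6 without untreated replicate 2 of 0 h and to 8 without replicate 1 of 3 h. In the chaperone arm 6 of 12 genes were higher at 3 h and 0 lower, and 5 were higher and 2 lower at 6 h. Of the 6 at 3 h, only Creld2 held when each compared array was left out. The calls of Hspa5, Pdia4, Pdia6, Hyou1 and Dnajb9 did not hold, so the rise of this arm at 3 h rests on few arrays. In the ATF4 arm 4 of 22 were higher and 1 lower at 3 h, 6 and 3 at 6 h, and 4 and 7 at 10 h. These comparisons share the untreated arrays with those of TGFβ1 above.

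By name, Chac1 rose by 0.86 at 3 h (adjusted p = 3.3e-05) and Slc7a1 by 0.51 at 3 h and 0.48 at 6 h. Ppp1r15a rose by 0.51 at 6 h and 0.69 at 10 h. Eif2ak3 rose by 0.42, 0.53 and 0.56 at 3, 6 and 10 h, and Creld2 by 0.31 and 0.30 at 3 and 6 h. Eif2ak4 rose by 0.47 at 6 h and 0.53 at 10 h, and Pdia4 by 0.35 and 0.43 at the same times. Trib3 rose by 0.33 at 3 h and 0.29 at 6 h. At 10 h Atf5 had fallen by 0.68, Slc7a11 by 0.60, Slc7a5 by 0.39, Herpud1 by 0.32 and Shmt2 by 0.30. Falls of Atf5 and Slc7a11 were already called at 6 h. Atf4 rose by 0.31 at 3 h (0.0018). All of these calls held when each compared array was left out. The rise of Atf4 by 0.23 at 6 h did not, with 0.0614 without untreated replicate 2 of 0 h and 0.0576 without replicate 1 of 6 h.

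In treated cells more members were lower than higher from 3 h on. Against treated cells of 0 h, 3 members were higher and 1 lower at 1 h (2.45% and 1.06% of all genes), 8 and 15 at 3 h (7.55% and 8.28%), 7 and 15 at 6 h (11.2% and 12.8%) and 6 and 19 at 10 h (14.5% and 13.6%). The count of 3 h fell from 23 to 15 without treated replicate 2 of 0 h, and that of 1 h from 4 to 2 without treated replicate 1 of 1 h. Of the 22 ATF4-arm genes, 4 were higher and 11 lower at 3 h, 4 and 12 at 6 h, and 3 and 14 at 10 h. Of the 12 chaperone-arm genes, 3 were higher and 1 lower at 3 h, 1 and 2 at 6 h, and 1 and 5 at 10 h. The deepest falls at 10 h were those of Atf5 (−0.90), Slc7a5 (−0.78), Slc7a11 (−0.71), Sdf2l1 (−0.58) and Aars (−0.57), each of which held without any 1 array. Atf5 and Slc7a11 fell in untreated cells too, by 0.68 and 0.60, and Slc7a5 and Aars were called lower there at 10 h as well. Sdf2l1 was not called in untreated cells at 10 h. Against this trend Nupr1 rose by 0.63, 1.21 and 0.65 and Eif2ak3 by 0.53, 0.80 and 0.56 at 3, 6 and 10 h. Eif2ak3 rose in untreated cells too at these times, by 0.56 at 10 h. Other rises in treated cells also held without any 1 array. They included those of Herpud1, Dnajb9 and Dnajc3 at 3 h and of Trib3 at 3 and 6 h. Atf4 was also called higher in treated cells at 3 and 6 h. Its call of 6 h held without any 1 array, and that of 3 h did not.

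**Figure D5:**
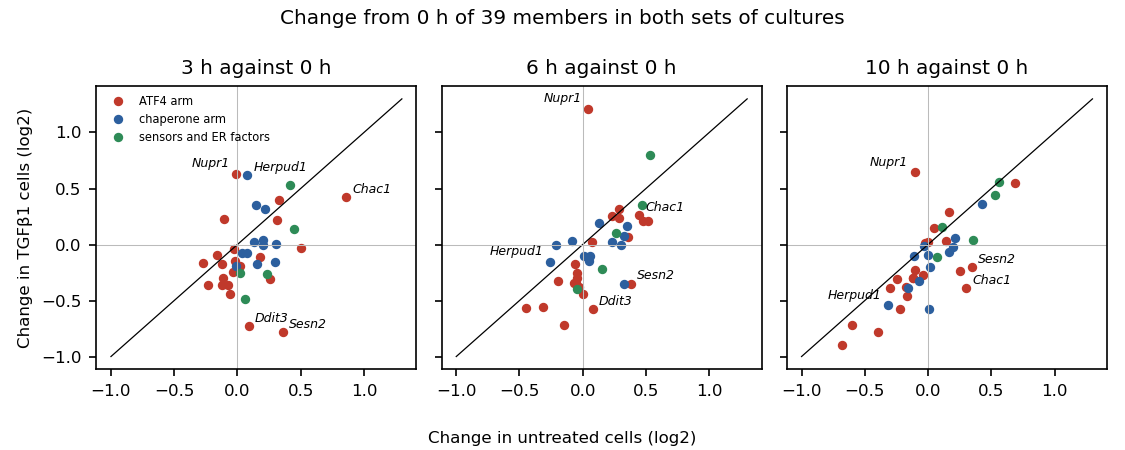
Log2 change from 0 h of the 39 members in untreated cells (horizontal axis) and in TGFβ1-treated cells (vertical axis) at 3, 6 and 10 h, coloured by set, with the line of equal change and 4 or 5 genes named. Nupr1 lies above the line at each time, and most ATF4-arm genes lie below it at 3 and 6 h.

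Whether the TGFβ1 effect itself changed with time was tested as a difference of differences. From 1 h to 3 h it became more positive for 0 members and more negative for 10 (2.47% and 3.94% of all genes). The 10 were Herpud1, Trib3, Ddit3, Slc7a1, Slc7a5, Ppp1r15a, Mthfd2, Hyou1, Xbp1 and Ern1. After centring on array medians the split was 1 and 8, and the count fell to 6 without untreated replicate 2 of 1 h. From 3 h to 10 h the effect became more positive for 4 members (Slc7a1, Ppp1r15a, Ern1 and Ddit3) and more negative for Herpud1 (4.11% and 2.96% of all genes). That split was 3 and 2 after centring and 3 and 3 after a further quantile normalization, and the count of 5 fell to 3 without treated replicate 2 of 3 h, without replicate 1 or 2 of untreated 3 h and without untreated replicate 1 of 10 h.

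Further genes of the pathways were read the same way. Of 32 other genes of the integrated stress response, 30 had a probe set that names them alone. Of these, 5 were higher and 0 lower at 1 h (1.91% and 0.324% of all genes), 4 and 10 at 3 h (6.73% and 8.55%), 6 and 8 at 6 h (7.77% and 7.96%), and 3 and 0 at 10 h (5.07% and 4.06%), where 10 had an unadjusted p under 0.05. Ddit4, an inhibitor of mTORC1, was higher by 1.12 at 1 h (adjusted p = 1.02e-13), 0.80 at 3 h and 0.32 at 6 h. Cebpb, a transcription factor that can pair with ATF4, was higher by 0.76 at 1 h (1.39e-09) and 0.56 at 3 h. Jdp2, another leucine zipper factor, was higher by 0.44 at 1 h (0.000503) but not with the mean of its probe sets (0.152). Cth, which makes cysteine from cystathionine, was lower, with a difference of −0.79 at 3 h and of −1.02 at 6 h (1.88e-08), and Slc38a2, a carrier of neutral amino acids, was higher by 0.25 at 6 h but not with the mean of its probe sets (0.172, adjusted p = 0.158). At 10 h Xpot, a tRNA exporter, was higher by 0.26 (0.000815).

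All 37 other genes of the unfolded protein response had a probe set. Of these, 0 were higher and 0 lower at 1 h, where 0 had an unadjusted p under 0.05. At 3 h 1 was higher and 6 lower, which is 2.70% and 16.2% beside 6.73% and 8.55% of all genes. At 6 h 5 and 3 were 13.5% and 8.11% beside 7.77% and 7.96%, and at 10 h 2 and 4 were 5.41% and 10.8% beside 5.07% and 4.06%. Wfs1, an ER membrane protein, was lower, with a difference of −0.87 at 3 h (adjusted p = 3.7e-06). Creb3l2, a membrane-bound factor related to ATF6, was higher by 0.57 at 3 h and 0.56 at 6 h (2.3e-06). Sec24d, a subunit of the COPII vesicle coat, was higher by 0.51 at 6 h (1.67e-06), and Hspa13 by 0.29. Selenos, a factor of ER-associated degradation, was lower, with a difference of −0.24 at 10 h (0.0012). The calls of Canx at 3 h and of Cebpb, Lars, Manf and Derl2 at 10 h were each lost without 1 or more arrays, with adjusted p up to 0.0744, 0.193, 0.415, 0.178 and 0.242.

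Over all 45037 probe sets, array medians ran from 5.15 to 5.21, duplicates correlated at 0.9958 to 0.9971, and the arrays of a group shared at most 0.040% of their values exactly. With 2 arrays a group, the median SE of a difference was 0.13, and precision is limited by how few arrays there are. The early TGFβ targets Smad7, Skil and Klf10 were higher at 1 h by 2.45, 2.27 and 3.57. The hepatic markers Alb (11.72 to 12.46) and Afp (12.41 to 12.99) were high, while Ttr, Apob, Apoa1 and Hnf4a had medians between 5.21 and 6.55, so the label of a hepatoma line rests on some of its markers. Afp was lower than in untreated cells at 1, 3, 6 and 10 h (−0.19, −0.25, −0.46 and −0.53) and Alb at 6 and 10 h (−0.39 and −0.49). For Alb, untreated cells had risen from 0 h by 0.41 and 0.51 at these times, and the change in treated cells was not called. Apoa1 was higher by 0.48 at 3 h (adjusted p = 0.0182 by limma), and Ttr, Apob and Hnf4a passed at no time. The mean level of the 6 hepatic markers was 7.94 to 8.16 in treated and 8.07 to 8.29 in untreated arrays from 3 h on. None of 5 leukocyte and 4 endothelial markers exceeded 6 on every array. Of 4 cholangiocyte markers all exceeded 6, and their mean level was 8.89 to 9.13 in the 6 treated arrays from 3 h on and 8.51 to 8.85 in the untreated ones, with Krt7 higher by 1.17 at 6 h and Krt19 at −0.26 (not called). Of 5 stellate or fibroblast markers only Dcn exceeded 6 on every array. Dcn read 13.34 to 13.54, above Alb and Afp, and passed at no time against untreated cells. Col1a1, dim at a median of 4.56, was higher by 1.22 at 3 h, where none of the others in that list was called. It was also higher by 0.94 at 6 h and 0.68 at 10 h. Pdgfrb, dim too, was higher by 0.63 at 6 h (adjusted p = 0.0439 by limma). The part of these markers in the differences of the members was not tested.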

How the data were processed

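RNA of Hepa1-6 cells was measured on 20 one-colour Affymetrix arrays. The deposited values are log2 signals that the authors made with RMA, per the submitters' processing notes, and its version is not given in the sources used here. The values run from 1.44 to 14.71 and were used as deposited. Of 45037 probe sets, 34945 name 1 gene in the platform annotation, 932 name several and 9160 none, and only the first kind was used. Groups came from the sample titles. For each of 18193 genes the brightest probe set on average was kept. The 10 groups each received a mean in a joint limma fit over the 20 arrays (version 3.58.1, R 4.3.3; lmFit, eBayes with a variance trend, 10 residual degrees of freedom). Benjamini-Hochberg adjustment ran over all genes within a comparison, and calls are two-sided at an adjusted p under 0.05. The script was tested on simulated data. The members, the arms, the gene lists and the tests were chosen with earlier results of these data known. Members called at a fold of at least 1.5, and Atf4, Ddit3, Xbp1 and Hspa5, are given with every array value where the rule names them, and Slc7a1 and Slc7a5 were added after their values were seen. Other called members are given by difference and adjusted p and the rest by ranges, and of the other pathway genes up to 3 per list and time with the lowest adjusted p were named. Alternatives were another choice or mean of probe sets, 2 further scalings, a filter on low levels, other variance settings, array weights, a replicate block, another baseline and leaving out each array, where a lone array is taken to vary like the other groups. Promoters came from a RefSeq table of GRCm38.p6.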

Additional observations from a re-analysis of the deposited data

Results flagged for a closer look

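The TGFβ1 effect on 10 members differed between 1 h and 3 h, and on 5 members between 3 h and 10 h, by the test of the difference itself (limma, adjusted over 18193 genes, 2 arrays per group). From 1 h to 3 h the log2 effect moved by −0.683 for Ddit3 (SE 0.092, adjusted p = 3.82e-05), −0.602 for Trib3 (3.96e-06), −0.551 for Slc7a1 (2.99e-05), −0.543 for Xbp1 (0.00661), −0.518 for Ppp1r15a (0.00571), −0.517 for Ern1 (0.000136), −0.402 for Hyou1 (0.0325), −0.397 for Herpud1 (0.00435), −0.341 for Slc7a5 (0.0252) and −0.303 for Mthfd2 (0.0351). For Trib3 the difference from untreated cells no longer passed the test at 3 h, for Herpud1 it was smaller but still positive (0.56), and the other 8 were called lower than untreated cells at 3 h and not at 1 h. Those of Hyou1, Mthfd2, Slc7a5 and Xbp1 were lost without single arrays. Hyou1 was lost without any of the 8 arrays but treated replicate 2 and untreated replicate 2 of 3 h and treated replicate 2 of 1 h, at up to 0.227. Mthfd2 was lost without any but untreated replicate 1 of 1 h and of 3 h, at up to 0.163, and Slc7a5 without any but treated replicate 1 of 1 h and of 3 h, at up to 0.121. Xbp1 was lost without treated replicate 1 (0.0531) or untreated replicate 2 (0.0545) of 1 h. Ern1 and Ddit3 moved so in their brightest probe sets, and the dimmer one of Ddit3 already read −0.70 at 1 h, beside −0.62 at 3 h.

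From 3 h to 10 h the effect moved by −0.770 for Herpud1 (SE 0.084, adjusted p = 2.93e-06), 0.641 for Slc7a1 (4.55e-06), 0.421 for Ppp1r15a (0.0248), 0.363 for Ern1 (0.00419) and 0.329 for Ddit3 (0.0312). Ppp1r15a and Ddit3 were each lost without 6 of the 8 arrays compared, at up to 0.131 and 0.152: Ppp1r15a held without treated replicate 2 and untreated replicate 2 of 10 h, and Ddit3 without treated replicate 1 and untreated replicate 2 of 10 h. The effect on Slc7a1 went from −0.50 at 3 h to 0.14 at 10 h.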

How the results depend on the processing

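None of the 70 differences between treated and untreated cells named for a gene and time changed direction under an alternative, while changes from 0 h and changes of effect were rerun for single genes only with each array left out. Against untreated cells, 25 of the 49 member calls kept their side of the threshold under all alternatives run. Without a variance trend the counts of called members were 6 in place of 13 at 10 h against untreated cells, 8 in place of 13 for untreated 3 h against 0 h, 2 in place of 4 for treated 1 h against 0 h and 6 in place of 10 for the change of effect from 1 h to 3 h. For untreated 1 h against 0 h, 1 member was called in place of 0 after centring on array medians, among genes above the median level and with all 4 arrays of 0 h as baseline. After a further quantile normalization the split at 1 h against untreated cells was 3 and 1. Leaving out 1 array gave 6 to 7 calls at 10 h against untreated cells, 6 to 11 for untreated 3 h, 2 to 3 for treated 1 h and 15 to 19 for treated 3 h against 0 h, 6 to 10 for the change from 1 h to 3 h and 3 to 5 for that from 3 h to 10 h. The difference in arm gap ran from −0.072 to −0.001 at 3 h and from −0.136 to −0.051 at 6 h when 1 array was left out. With the mean over an arm in place of the median it was −0.025 at 1 h, −0.104 at 3 h and 0.037 at 10 h. At 3 h it was −0.081 with the mean of probe sets and reversed to 0.003 with a further quantile normalization. The causes were not tested. Low signal limits Fgf21 (4.19 to 4.91) and the other probe sets of Ern1, with means of 3.35 to 6.06.

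Deviations of same-numbered treated and untreated arrays correlated at 0.050, 0.082, −0.063, 0.093 and 0.003 at 0, 1, 3, 6 and 10 h. These values show no strong shift shared by same-numbered arrays, and they cannot show whether the cultures were paired. With a replicate block the counts were 0, 3, 18, 16 and 13 at 0, 1, 3, 6 and 10 h against untreated cells, 0, 14, 20 and 20 for untreated and 5, 23, 24 and 25 for treated cells against 0 h, and 11 and 6 for the changes of effect, all within 1.5 times the counts without it.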
